A study of Mus musculus with 7 samples.

Results

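The genes described here are 7 members of the fatty acid and cholesterol synthesis programme of mouse liver, Srebf1, Srebf2, Fasn, Scd1, Acaca, Acly and Sqle, out of 22365 protein-coding genes in the annotation used. They were taken by name, and their windows were set as the gene body plus 20 kb on either side. The windows held 76 of 72286 DNase I hotspots, 66 of 60910 Benzonase hotspots and 62 of 57675 Cyanase hotspots. Hotspots are stretches in which nuclease cleavage tags cluster above background. Hotspots of different lists that overlapped by at least 1 bp were merged, which gave 83 of the 94491 regions of the whole series.

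Chromatin accessibility was measured in liver of male C57BL/6 mice of 8 weeks, with no genetic change or treatment. Benzonase and Cyanase, endonucleases that tolerate harsh lysis conditions, were applied to pulverized frozen tissue (the TACh procedure) at 0.25, 1 and 4 U, with 1 library at each concentration. DNase I was applied to nuclei purified from fresh tissue, and 1 sample is labelled, although the track line of its list names a pool. The paper states that its DNase I hotspots were called on combined tags of replicates. Nuclease and tissue preparation changed together, so their effects on a hotspot cannot be told apart. There was 1 pooled list per nuclease, holding positions only, so no spread between replicates and no tag number per hotspot were available and no test was made. In bulk tissue, accessibility in few cells and weak accessibility in many cells cannot be told apart.

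The liver label was checked against marker genes. A gene was counted as called where a transcription start site (TSS) of a protein-coding transcript lay inside a hotspot. The 5 hepatocyte markers (Alb, Apoa1, Ttr, Apob and Serpinc1) were called in each list, and 0 of 4 genes of other tissues, among them Myod1, Ins2 and Neurog1, in any. Markers of the other liver cells were called in part. Of 3 genes each, DNase I called 2 for Kupffer cells, 0 for sinusoidal endothelial cells, 1 for stellate cells and 1 for bile duct. Benzonase called 0, 1, 2 and 2 of the same lists, and Cyanase 1, 1, 3 and 1.

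Srebf1 and Srebf2 encode the sterol regulatory element binding proteins, transcription factors made as membrane proteins of the endoplasmic reticulum. When sterols are scarce, the escort protein Scap carries them to the Golgi, where proteases release the part that enters the nucleus. Acly cleaves citrate to cytosolic acetyl-CoA, Acaca carboxylates acetyl-CoA to malonyl-CoA, Fasn builds palmitate from it and Scd1 introduces a double bond, whereas Sqle oxidizes squalene on the way to cholesterol. Liver is a major site of both pathways, and SREBP proteins are known to bind sterol regulatory elements, often near NF-Y and Sp1 sites.

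The following sequences carry the contrasts described later, as read from mm9 and written in the direction of the strand given. Capitals mark exact matches, on either strand, to TCACNCCAC (an SREBP site), CACGTG (an E-box), CCAAT (NF-Y), GGGCGG (Sp1), TGTTTAC (forkhead factors) or CAAAGTCCA (HNF4). The first is shown for an SREBP site and an E-box together, the next for an SREBP site before a TSS, Scd1 for a start without a CpG island, SREBP-1c as the start of the insulin-responsive form, and the stretch between the divergent starts of Tada2a and Acaca because it was absent from the DNase I list.
Srebf1 upstream region, chr11:60036331-60036444, minus strand: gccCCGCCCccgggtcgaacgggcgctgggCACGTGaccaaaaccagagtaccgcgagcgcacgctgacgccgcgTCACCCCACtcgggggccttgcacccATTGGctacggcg
Acaca internal start, 170 bases before the TSS, chr11:83986454-83986623, plus strand: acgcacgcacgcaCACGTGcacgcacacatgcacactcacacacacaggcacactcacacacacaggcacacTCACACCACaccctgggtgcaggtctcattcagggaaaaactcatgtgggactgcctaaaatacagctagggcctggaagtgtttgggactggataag
Scd1, 170 bases before the TSS, chr19:44482200-44482369, minus strand: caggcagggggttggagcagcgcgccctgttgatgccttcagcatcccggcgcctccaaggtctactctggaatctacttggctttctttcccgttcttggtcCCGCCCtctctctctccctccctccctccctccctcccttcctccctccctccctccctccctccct
Srebf1 SREBP-1c start, 170 bases before the TSS, chr11:60023968-60024137, minus strand: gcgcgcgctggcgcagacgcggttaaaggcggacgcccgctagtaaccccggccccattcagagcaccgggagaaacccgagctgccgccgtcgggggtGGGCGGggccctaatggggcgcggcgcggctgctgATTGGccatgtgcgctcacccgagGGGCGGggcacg
Between Tada2a and Acaca, chr11:83943103-83943173, plus strand: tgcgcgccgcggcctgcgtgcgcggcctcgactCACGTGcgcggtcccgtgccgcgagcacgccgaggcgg
A further pair shows the centres of one region seen with DNase I only, in an intron of Acaca, and one seen with Benzonase only, downstream of Srebf2.
Acaca, DNase I only, chr11:84149545-84149644, plus strand: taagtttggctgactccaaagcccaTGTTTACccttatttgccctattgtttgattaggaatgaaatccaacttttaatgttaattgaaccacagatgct
Srebf2, Benzonase only, chr15:82042522-82042621, plus strand: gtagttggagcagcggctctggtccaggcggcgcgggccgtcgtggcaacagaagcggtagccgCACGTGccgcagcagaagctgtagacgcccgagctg

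A hotspot covered a TSS of each of the 7 genes in every list. Among all 22365 genes, active in liver or not, this held for 47.4% with DNase I, 57.4% with Benzonase and 55.7% with Cyanase. For all 3 lists together it was 46.1%. The windows were also dense in hotspots. Per 100 kb of window the 7 genes had a median of 10.9 DNase I, 9.82 Benzonase and 9.82 Cyanase hotspots, against medians of 4.24, 3.83 and 3.61 over the windows of all genes, and each of the 7 lay above those medians. Srebf1 was the densest, with 22.0, 25.2 and 22.0 hotspots per 100 kb. Acaca, whose body spans 271980 bp, was the sparsest for Benzonase and Cyanase, with 4.49 and 4.17, while Sqle was the sparsest for DNase I with 5.35.

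**Figure D1:**
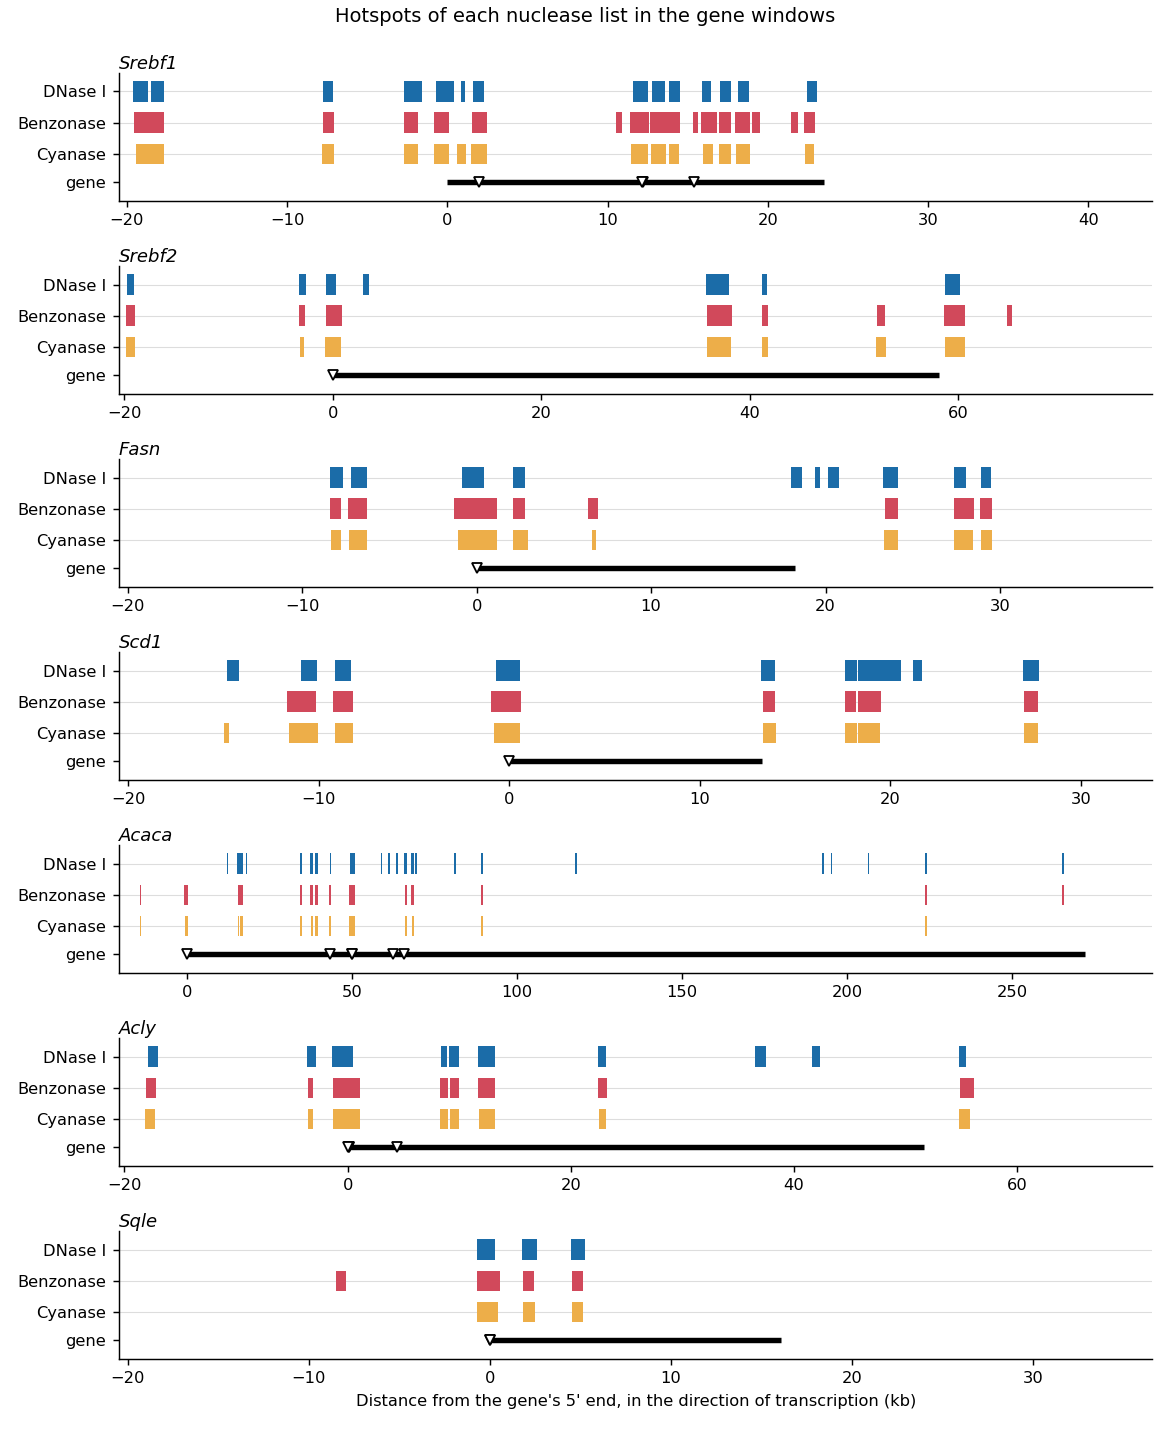
Hotspots of DNase I, Benzonase and Cyanase in the windows of the 7 genes, by distance from the 5′ end of the gene in kb. Coloured boxes are hotspots, the black bar is the gene body and open triangles are TSSs of protein-coding transcripts. DNase I boxes without a partner lie mostly in the body of Acaca and at the 3′ end of Fasn, and Benzonase boxes without a partner mostly in Srebf1.

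Srebf1 (chr11:60012591-60036083, minus strand, 19 exons) encodes SREBP-1a from an upstream TSS and the shorter SREBP-1c, the main form of liver, from a downstream TSS. Both starts were accessible to each nuclease. At the SREBP-1a start, chr11:60034106, the hotspot was 671 bp wide with DNase I, 956 bp with Benzonase and 997 bp with Cyanase. At the SREBP-1c start, chr11:60023967, it was 967, 1162 and 1075 bp, and the same hotspots covered a further annotated start at 60023856. The fourth coding start, 60020690 at exon 2, lay inside a Benzonase hotspot of 324 bp and in no hotspot of the other lists.

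The 5′ end of the Srebf1 locus, at 60036083, is that of a noncoding transcript that begins 1977 bp before the SREBP-1a start. It held a region common to the 3 lists, chr11:60035693-60036938, with hotspots of 1094 bp (DNase I), 969 bp (Benzonase) and 941 bp (Cyanase). The region contained a CpG island of 209 bp, and from -358 to -162 bp relative to that 5′ end it held 1 Sp1, 1 E-box, 1 SREBP and 2 NF-Y matches. An SREBP match was found in the central 300 bases of 1.3% of all 94491 regions, and in 2 of the 83 here, this one among them.

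The window of Srebf1 held 16 regions, of which 12 were common to DNase I and at least 1 of the other nucleases, and 11 were in all 3 lists. None was unique to DNase I. The other 4 were seen with Benzonase only, at widths of 393, 324, 478 and 458 bp. These lay in intron 1, at exon 2, at exons 10 and 11 and at exon 17, and their GC content ranged from 58.5 to 62.3%. Region chr11:60034942-60035475, between the noncoding and the SREBP-1a starts, was seen with DNase I (264 bp) and Cyanase (534 bp) only. Upstream, hotspots of all 3 lists lay from -19642 to -1606 bp relative to the 5′ end, the widest being a Benzonase hotspot of 1825 bp. There DNase I gave 2 hotspots with a gap between them (815 and 958 bp). Cyanase gave 2 that abutted without a gap (892 and 872 bp).

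Srebf2 (chr15:81977696-82035806, plus strand, 19 exons), which encodes the SREBP most tied to sterol synthesis, had a single coding start. Its hotspot was 972 bp wide with DNase I, 1541 bp with Benzonase and 1526 bp with Cyanase. The 3 hotspots reached 674, 679 and 748 bp upstream of the TSS, and 297, 861 and 777 bp downstream. The difference between the nucleases was thus on the transcribed side. An intragenic region mostly in intron 10 that reached exon 11, chr15:82013532-82015960, was wide in each list, at 2167, 2346 and 2288 bp.

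Of 9 regions in the Srebf2 window, 6 were in all 3 lists, 1 in intron 1 was DNase I only (605 bp, 43.1% GC), 1 was Benzonase and Cyanase only and 1 Benzonase only. The Benzonase only region, 476 bp wide and downstream of the gene, had the highest GC content of the 83 (74.8%) and overlapped a CpG island of 1101 bp. The region missing from the DNase I list, chr15:82029810-82030753 at exon 17 (801 bp with Benzonase, 944 bp with Cyanase), was the nearest to Mir33. Mir33 is the microRNA that sits in intron 16 of Srebf2 (chr15:82028552-82028620, plus strand) and is known to repress cholesterol efflux genes. Its nearest hotspot was 1284 bp away with Benzonase, 1190 bp with Cyanase and 7836 bp with DNase I. Its mature sequence, from RefSeq (GRCm38.p6), is given with the seed (bases 2 to 8) in capitals.
mmu-miR-33-5p: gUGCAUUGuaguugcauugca

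Among the fatty acid enzymes, Acly (chr11:100337667-100389314, minus strand) had wide hotspots at its start, of 1805 bp with DNase I, 2413 bp with Benzonase and 2427 bp with Cyanase. All of them covered the 3 coding starts between 100389183 and 100389314. Upstream they reached 1354, 1310 and 1331 bp, and downstream 450, 1102 and 1095 bp. The remaining coding start, 100384912, annotated for other transcripts, lay in no hotspot. The Acly window held 10 regions, 8 in all 3 lists and 2 with DNase I only, of 937 and 681 bp, both in intron 20.

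Fasn (chr11:120667254-120685492, minus strand, 43 exons) had the largest contrast in width at its start, where the hotspot was 1239 bp with DNase I, 2441 bp with Benzonase and 2238 bp with Cyanase. The DNase I hotspot lay within the other 2, reaching 840 bp upstream and 398 bp downstream of the TSS, against 1270 and 1170 bp with Benzonase. A CpG island of 1422 bp spanned the start.

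The Fasn window held 11 regions, of which 7 were in all 3 lists, 3 were DNase I only and 1 lacked DNase I. In the whole series 28.3% of regions were DNase I only. Those upstream (-8397 to -6258 bp relative to the TSS), the one in intron 3, and the 3 farthest downstream were in all 3 lists. At intron 3 only the Cyanase hotspot reached into exon 3. The 3 DNase I only regions followed each other at the 3′ end, with hotspots of 648 bp at exon 43, the last exon, and of 315 and 630 bp just downstream. One region at exons 12 and 13, chr11:120678544-120679125, was seen with Benzonase (582 bp) and Cyanase (251 bp) only.

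Scd1 (chr19:44468941-44482199, minus strand, 6 exons), the main stearoyl-CoA desaturase of liver, was the one gene of the 7 with no CpG island at any accessible start. Its TSS hotspots were 1263 bp with DNase I, 1536 bp with Benzonase and 1387 bp with Cyanase, with similar downstream reach (559, 585 and 567 bp). Of its 9 regions 8 were common. A pair of upstream regions between -11700 and -8186 bp was in all 3 lists, the farther being 864 bp with DNase I, 1571 bp with Benzonase and 1521 bp with Cyanase. Downstream the order was inverted at chr19:44461657-44463893, where DNase I gave 2216 bp, Benzonase 1226 bp and Cyanase 1167 bp.

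Acaca (chr11:83943174-84215153, plus strand) is transcribed from several starts, and these differed between the lists. The most 5′ start, 83943174, lay in a Benzonase hotspot of 1039 bp and a Cyanase hotspot of 893 bp, with no DNase I hotspot. It is divergent to a start of Tada2a, a component of histone acetyltransferase complexes, at 83943102, and a CpG island of 551 bp with 76.2% GC covers both. The E-box match lay from -38 to -33 bp relative to the Acaca start. This CpG island start was the one accessible start of Acaca that the DNase I list lacked.

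The start of the longest Acaca transcript, 83986624, was in all 3 lists with nearly equal widths of 531 bp (DNase I), 531 bp (Benzonase) and 588 bp (Cyanase). This promoter had 50.7% GC, no Sp1 match and no CpG island. Its SREBP match, from -98 to -90 bp, and its E-box match, from -157 to -152 bp, both lie within a stretch of CA repeats, as the printed sequence shows. Of all 45969 promoters of 300 bases (250 before to 50 after a TSS), 1.15% held an SREBP match, 7.67% an E-box match and 44.3% an Sp1 match. The starts at 83993313 and 83993375 share a CpG island of 1095 bp and hold 7 Sp1 matches each. Their promoters of 300 bases overlap, so most of these matches are the same sites. There Benzonase gave 1 hotspot of 1744 bp and Cyanase 1 of 1696 bp. The DNase I hotspots, of 921 and 722 bp, met without a gap. The starts at 84005573 and 84008940 lay in no hotspot. The promoter at 84005573 held 1 SREBP match, from 2 to 10 bp after the TSS, and 3 NF-Y matches. An NF-Y match was present in 35.7% of all promoters.

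The Acaca window held 24 regions, of which 11 were DNase I only. In the whole series 28.3% of all regions were DNase I only, and 32.5% of regions without a TSS. The 11 in Acaca all lay inside the gene body, 12102 to 206605 bp from the 5′ end, and were 251 to 684 bp wide. Another 10 were in all 3 lists, 1 in DNase I and Benzonase and 2 in Benzonase and Cyanase. The GC content of the DNase I only regions in Acaca ranged from 35.3 to 46.5%.

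Sqle (chr15:59146632-59162747, plus strand, 11 exons) had the fewest regions. Its TSS hotspots were 987 bp with DNase I, 1315 bp with Benzonase and 1162 bp with Cyanase, and reached 266, 573 and 460 bp downstream of the start at 59146636. Regions in introns 1 and 2 were in all 3 lists, and at both the DNase I hotspot was the widest, at 829 against 601 and 633 bp and at 782 against 610 and 568 bp. One region upstream, from -8482 to -7931 bp, was seen with Benzonase only (552 bp). None was unique to DNase I.

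The other genes of the pathway list gave the same calls at the TSS. The list holds 41 names, and Hmgcs1 was not analysed here. Each of the 3 lists called 18 of 18 sterol synthesis genes, among them Lss, which cyclizes squalene epoxide to lanosterol. The counts were 11 of 11 for fatty acid and triglyceride synthesis, and 11 of 11 for regulation and uptake, which includes Insig1, which retains SREBPs in the endoplasmic reticulum. In all, 40 of 40 were called in every list, against 46.1% of all genes, active in liver or not. The paper reports Benzonase and Cyanase hotspots at the TSS of most active genes and of fewer inactive genes. A comparison with active genes alone was not made. Widths still differed. At Pnpla3, a lipid droplet lipase, the widest TSS hotspot was 682 bp with DNase I, 2598 bp with Benzonase and 2617 bp with Cyanase. At Stard4, a cholesterol transport protein, the order was inverted, at 2243, 1307 and 1308 bp.

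**Figure D2:**
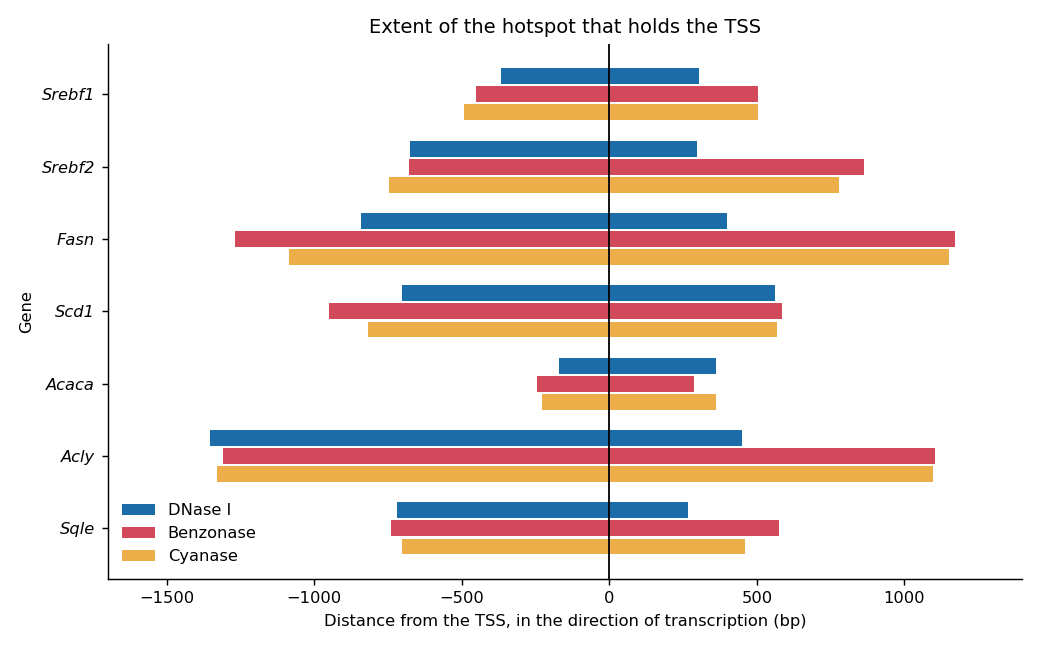
Extent of the hotspot over the first coding TSS that lay in hotspots of all 3 lists, by distance from that TSS in bp. Each bar is 1 hotspot. In 6 of the 7 genes the DNase I bar ends closer to the TSS on the transcribed side than the Benzonase bar. Acaca is the exception at the start shown, 83986624.

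Taking for each gene the first coding TSS found in all 3 lists, the hotspots of the 7 genes reached a median of 703 bp upstream with DNase I and 741 bp with Benzonase, and 359 and 585 bp downstream. The DNase I hotspot was narrower than the Benzonase hotspot in 6 genes and equal in Acaca, with ratios of width from 0.508 at Fasn to 1. Acaca was equal at the start taken, 83986624. At its later start 83993313 the DNase I hotspot was 921 bp, abutted by another of 722 bp, against 1744 bp with Benzonase. In the pathway list the DNase I hotspot was narrower in 36 of 40 genes (90.0%), and among 10275 genes of the annotation in 88.3%. The downstream reach was shorter with DNase I in 6 of the 7, in 37 of 40 and in 88.4% of genes, and the upstream reach in 6 of the 7, in 26 of 40 and in 70.6%. The narrower DNase I hotspot at a start was thus shared with most accessible genes.

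Of the 52 regions in all 3 lists, 47 held exactly 1 hotspot of each. In these the median width was 744 bp with DNase I, 808 bp with Benzonase and 770 bp with Cyanase, and the DNase I hotspot was the narrower of DNase I and Benzonase in 26 (55.3%, against 52.9% of 33922 regions in the whole series). The order depended on position. In the 13 regions that held a TSS, the medians were 905, 1189 and 1075 bp and DNase I was narrower in 11 (84.6%, whole series 86.3%). In the 34 without a TSS, they were 736, 726 and 670 bp and DNase I was narrower in 15 (44.1%, whole series 42.3%). Bounds of Benzonase and Cyanase hotspots lay closer together, with a median gap of 28.5 bp, than those of Benzonase and DNase I with 70.0 bp. In the whole series these gaps were 33 and 71 bp.

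**Figure D3:**
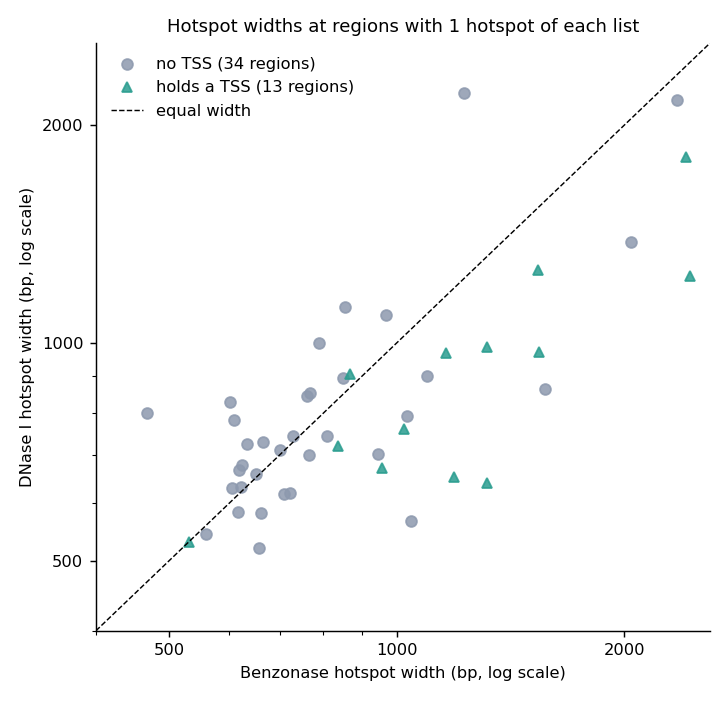
Width of the DNase I hotspot against that of the Benzonase hotspot, in bp on log axes, at the 47 regions with 1 hotspot of each list. Triangles hold a TSS and circles do not. Of the 13 triangles 11 lie below the dashed line of equal width, and of the 34 circles 15.

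Common regions made up 55 of the 83 (66.3%, 95% Wilson interval 55.6 to 75.5%), against 45.4% in the whole series. DNase I unique regions were 18 (21.7%, 14.2 to 31.7%) against 28.3%, and regions of Benzonase or Cyanase without DNase I, called Benzonase-Cyanase unique, were 10 (12.0%, 6.68 to 20.8%) against 26.3%. The intervals cover counting error only. Of the 10, 4 were in both lists and 6 in the Benzonase list only. A region seen with Cyanase only was not found (0 of 83, which allows a share of up to 3.61%), against 6.8% in the whole series. Read per hotspot, 58 of 76 DNase I hotspots (76.3%, whole series 63.0%) overlapped a hotspot of either other list. A DNase I hotspot overlapped 56 of 66 Benzonase hotspots (84.8%, whole series 69.3%) and 58 of 62 Cyanase hotspots (93.5%, whole series 71.1%). Of the 66 Benzonase hotspots, 59 (89.4%, whole series 79.6%) overlapped a Cyanase hotspot.

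The share of DNase I unique regions rested on Acaca, which held 11 of the 18. Without Acaca it was 11.9% (5.87 to 22.5%). With an overlap of 50% of both hotspots required, the Benzonase-Cyanase unique share was 19.1%, and 31.3% in the whole series.

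**Figure D4:**
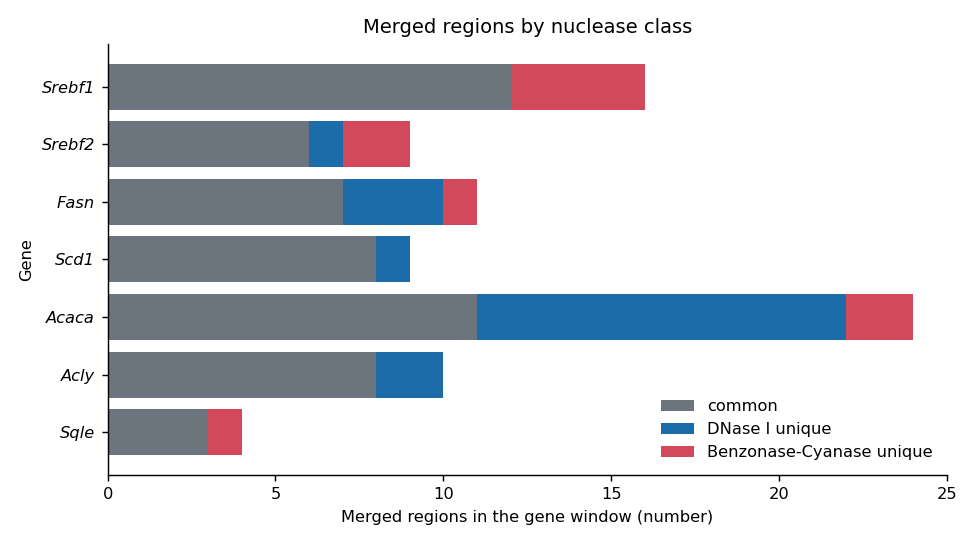
Merged regions in the window of each gene, by class, as a number of regions. Acaca holds 11 of the 18 DNase I unique regions, and Srebf1 holds 4 of the 10 Benzonase-Cyanase unique regions.

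The classes also differed by position. Of 16 regions with a TSS of a protein-coding transcript, 14 were in all 3 lists (87.5%, whole series 78.1%). Another 2 were Benzonase-Cyanase unique (12.5%, whole series 19%), the most 5′ start of Acaca and the exon 2 start of Srebf1. DNase I unique regions were 0 of 16, which allows a share of up to 18.8% (whole series 1.89%). Starts of Srebf1 transcripts not annotated as coding were not counted here, and those at 60016990 and 60014542 lay in the Benzonase only regions at exons 10 and 11 and at exon 17. The TSSs of neighbouring genes in the windows that lay in hotspots of all 3 lists were those of Ccdc134, Dus1l, Gm11437, Klhl11 and Ttc25. Of 67 regions without such a TSS, 41 were common (61.2%, whole series 40.0%), 18 DNase I unique (26.9%, whole series 32.5%) and 8 Benzonase-Cyanase unique (11.9%, whole series 27.4%). By place, 45 of these 67 regions overlapped a gene body, 10 lay downstream and 12 upstream. Of them 15, 3 and 0 were DNase I unique, in that order. Acaca, whose body fills most of its window, held 11 of the 15. The same split was not computed for the whole series.

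GC content differed between the classes in the same order as in the whole series. It averaged 43.1% ± 4.27 (SD over 18 regions) in DNase I unique regions, 52.1% ± 6.49 (55 regions) in common regions and 60.0% ± 6.91 (10 regions) in Benzonase-Cyanase unique regions, against 42.3, 49.5 and 54.7% in the whole series. The DNase I unique regions ranged from 35.3 to 51.4% and the Benzonase-Cyanase unique regions from 47.2 to 74.8%. The ranges overlapped through 1 Benzonase-Cyanase unique region of 47.2% upstream of Acaca. Each of the 10 Benzonase-Cyanase unique regions had more GC than the 5 kb on either side of it, as did 43 of 55 common regions (78.2%) and 6 of 18 DNase I unique regions (33.3%), and the shares in the whole series were 95.6, 77.0 and 44.8%. The surrounding sequence also differed between the classes. The flanks averaged 43.1% GC around DNase I unique regions, 48.1% around common regions and 51.7% around Benzonase-Cyanase unique regions, against 42.9, 45.0 and 44.9% in the whole series. The SD describes regions, which share genes and lists, and is no replicate error.

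**Figure D5:**
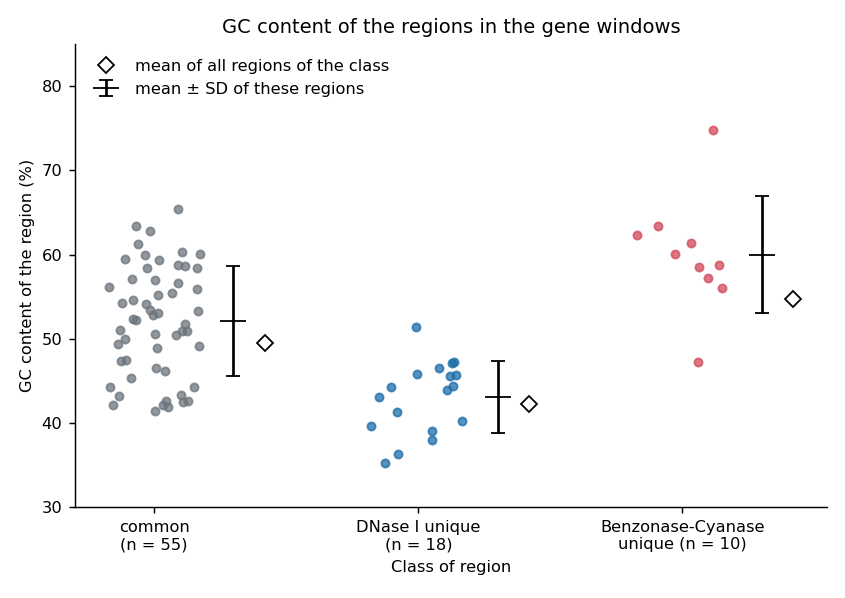
GC content in percent of the 83 regions by class. Points are regions, bars are their mean ± SD and diamonds are the means of all regions of the class in the series. DNase I unique regions average 43.1% and Benzonase-Cyanase unique regions 60.0%.

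CpG islands overlapped 12 of 55 common regions (21.8%, whole series 21.7%), 2 of 10 Benzonase-Cyanase unique regions (whole series 13.6%) and 0 of 18 DNase I unique regions, which allows up to 16.7% (whole series 0.135%). Motif matches by class are given in the order common, Benzonase-Cyanase unique and DNase I unique. An Sp1 match was present in the central 300 bases of 19 of 55 common regions, 4 of 10 Benzonase-Cyanase unique regions and 0 of 18 DNase I unique regions, against 21.6, 19.8 and 2.91% in the whole series. A forkhead match was present in 2, 1 and 4 of these regions, against 6.83, 2.99 and 9.6%, and the 4 all lay in introns of Acaca. An NF-Y match, the most frequent, was present in 25, 2 and 5 of them, against 35.1, 30.9 and 40.7%, so DNase I unique regions held it most often in the whole series and common regions here. An E-box match was present in 5, 2 and 0, against 6.71, 5.72 and 4.80%. The forkhead letters are rich in A and T and the Sp1 letters in G and C. An HNF4 match was found in 1 of the 83 regions, intron 6 of Acly, against 1.56% of all regions. A match describes letters and is no measure of binding, and a missing match says only that these letters are not in the window.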

How the data were processed

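Per the labels and the study's methods, tags were aligned to mm9 with Eland or Bowtie, and the authors pooled the libraries of each enzyme before calling hotspots, with 0% as the false discovery rate and the mode of the tag density as threshold. The deposited positions, 1 list per nuclease, are described in their track lines as input adjusted and unmerged. They hold more positions than the hotspot totals stated for the study, and which positions those totals counted is not known, which touches each total and share of the whole series given here. They hold no tag numbers, so the depth per hotspot is unknown. There were 0 columns of other samples.

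The 7 genes, the pathway list, the markers and the motifs were chosen with earlier results of these data known. The 7 genes are named throughout, and neighbours where a TSS of theirs lay in a hotspot. Positions were counted from 1 and read against NCBIM37 (mm9) with GENCODE release M1, and 2 hotspots past a chromosome end were kept. Hotspots overlapping by at least 1 bp were merged. Motifs were searched on both strands, in 250 bases before to 50 after a TSS and in the central 300 bases of regions, and distances from a TSS count the TSS as 0. Exon and intron numbers are those of the coding transcript with most exonic bases. CpG islands were maximal-scoring segments (17 per CpG, -1 per other base) of 200 bp or more that had above 50% GC and an observed to expected CpG ratio above 0.6, with repeats unmasked. GC flanks were 5 kb. Shares carry 95% Wilson intervals, and a count of 0 is given with the limit of 3 counts of the total. No test was run, because each nuclease has 1 pooled list. Python 3.11.15, numpy 2.4.6, numba 0.67.0 and matplotlib 3.10.9 were used. On simulated data all 1150 regions and 50 CpG islands were recovered. Tag densities and single concentrations were not analysed here, and some listed genes and one promoter sequence are not reported here.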

Additional observations from a re-analysis of the deposited data

How the results depend on the processing

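Each of the 17 summary values was recomputed under the alternatives that apply to it, which were other window flanks (10 or 50 kb, or gene body only), midpoints, joining within 150 bp, an overlap of 50% of both hotspots, dropping hotspots narrower than the lower quartile of their list, all annotated transcripts, a TSS distance of 500 bp, leaving out regions at a TSS, the central 150 bp for GC content, and stricter islands. Of 46 alternative values 45 stayed within the counting interval, the SD over regions or a factor of 1.5 of the value reported. The exception was chosen after seeing the data. Without Acaca, DNase I unique regions were 11.9% of 59 instead of 21.7% of 83. Calls at the TSS were 7 of 7 in each list under every alternative to them. The share of Benzonase-Cyanase unique regions ranged from 10 to 19.1%. Without regions at a TSS, the DNase I hotspot was narrower than the Benzonase hotspot in 44.1% of regions (28.9 to 60.5%). With them it was 55.3% (41.2 to 68.6%), and both intervals hold 50%. The whole series moved alike, from 52.9 to 42.3%. No paired analysis was possible because each nuclease has 1 list of pooled tags. Since the lists carry no tag numbers, a hotspot missing from a list may lie just under its threshold, and libraries of unlike depth could not be weighed.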
